A study of Mus musculus with 18 samples.

Results

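Macrophages that live in the kidney were followed here through 10 genes that mark them: C1qa, C1qb, C1qc, Adgre1, Csf1r, Cd163, Mrc1, Lyz2, Cd68 and Mpeg1. The genes were taken by name from the 55385 genes of the tables, and all 10 were among the 17575 genes that passed the filter on low counts. No marker lies on chromosome 16, the one duplicated in part in these mice. Whole kidneys of 18 mice were profiled by polyA RNA sequencing, in 3 groups of 6 animals with 3 males and 3 females each, aged 17.1 to 18.0 weeks and without a treatment. The groups were wild-type C57BL/6J mice, Dp16 mice and Dp16 2xIFNRs mice. Dp16 mice carry an extra copy of the stretch of chromosome 16 that matches much of human chromosome 21, and serve as a model of trisomy 21. Dp16 2xIFNRs mice carry the same extra copy, but the interferon receptor genes within it are back at the usual dosage. Both alterations are in the germline and so are present in every cell type of the kidney.

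Resident macrophages seed the kidney before birth, are later joined by cells derived from blood monocytes, and sit between the tubules, where they take up debris and immune complexes. Their survival depends on the receptor encoded by Csf1r, which binds the growth factors encoded by Csf1 and Il34. They are a main source of C1q, the recognition molecule that starts the classical complement pathway, and they display scavenger and mannose receptors and hold large lysosomes. Several of the markers are shared with other cells: Lyz2 is also made by monocytes and neutrophils, Mpeg1 and Cd68 by monocytes and dendritic cells, Mrc1 by some endothelial cells, and Csf1r by monocytes.

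Library totals ran from 42157790 to 57814587 counts, and mitochondrial genes took 6.34% to 10.88% of them. Of the receptor genes, Ifnar1, Ifnar2, Ifngr2 and Il10rb were all higher in Dp16 than in wild-type by edgeR, with log2 folds of 0.58, 0.80, 0.76 and 0.60. In Dp16 2xIFNRs their log2 folds against wild-type were 0.16, 0.20, 0.13 and -0.01, and Ifnar2 was still called higher (edgeR adjusted p = 0.0368). Against Dp16, Ifnar2, Ifngr2 and Il10rb were lower in Dp16 2xIFNRs (-0.60, -0.63 and -0.62), and Ifnar1 was not called (-0.42, edgeR adjusted p = 0.113). The tissue was kidney by its leading genes, with the proximal tubule gene Kap at 5815 to 28204 CPM (counts scaled to library size, with TMM normalisation) and the loop of Henle gene Umod at 3661 to 4764 CPM in wild-type.

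In wild-type kidneys the markers spanned 2 orders of magnitude when set against gene length, in RPKM (reads per kilobase of gene, scaled to library size). C1qa, the first chain of C1q, had the highest level at 26.7 ± 4.72 RPKM (mean ± SD, n = 6). Lyz2, a lysozyme that cuts bacterial cell walls, stood at 21.7 ± 4.47 and C1qb at 21.5 ± 3.69 RPKM. These 3 levels overlapped between animals, as did the next, C1qc at 16.1 ± 3.56 RPKM, with C1qb above it and Csf1r (12.8 ± 2.19 RPKM) below it, although C1qb exceeded C1qc within each of the 18 libraries. Clear steps followed: in 6 of 6 wild-type animals Csf1r lay above the highest level of Mpeg1 (5.24 ± 1.18 RPKM), a pore-forming protein of the phagosome. Cd68, a glycosylated protein of the lysosome membrane, had 4.74 ± 1.16 RPKM and overlapped with Mpeg1. Adgre1, which encodes the surface antigen F4/80, had 2.03 ± 0.428 RPKM, Mrc1, the mannose receptor CD206, 0.957 ± 0.155 RPKM, and Cd163, the scavenger receptor for haemoglobin bound to haptoglobin, 0.224 ± 0.104 RPKM, each below the lowest value of the gene before it. Cd163 rested on 18 to 94 counts per library, against 1022 to 1930 for C1qa in the same animals.

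**Figure D1:**
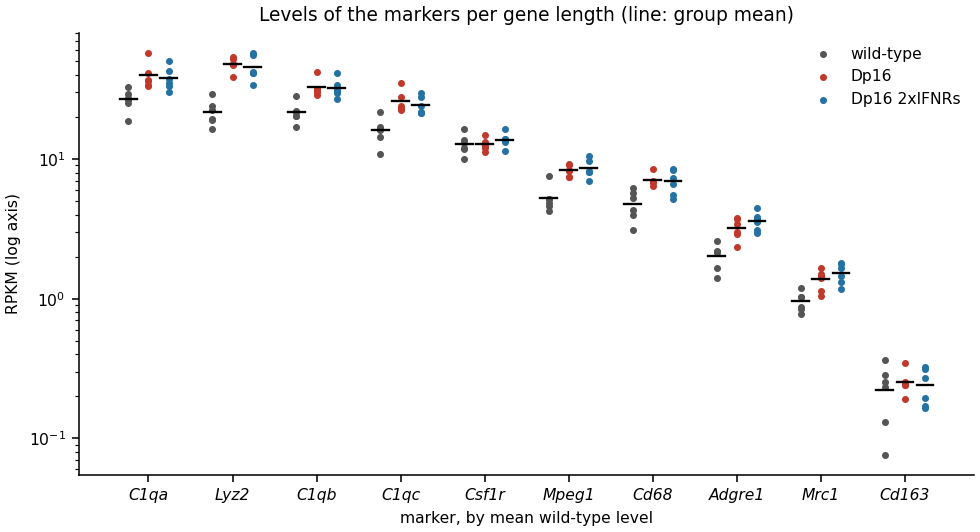
RPKM of each marker on a log axis, with 1 point per animal, the 3 groups side by side and a line at each group mean, ordered by the wild-type mean. C1qa leads at a wild-type mean of 26.7 RPKM and Cd163 closes at 0.224 RPKM, and Lyz2 is the marker with the largest gap between the wild-type points and the others.

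Compared with wild-type, 8 of the 10 markers were higher in Dp16 kidneys and 0 were lower by edgeR's quasi-likelihood test at a Benjamini-Hochberg adjusted p under 0.05 (n = 6 per group). Over all genes tested 3.17% were higher and 1.06% lower in that comparison. In Dp16 2xIFNRs kidneys 7 markers were higher and 0 lower, against 3.17% and 1.61% of all genes. The median log2 fold change of the 10 markers was 0.55 in Dp16 and 0.55 in Dp16 2xIFNRs, beside medians of -0.01 and 0.01 over all genes. Called in both were C1qa, C1qb, C1qc, Adgre1, Mrc1, Lyz2 and Mpeg1, 7 of 10, while 1.99% of all genes were called higher in both. The 2 comparisons share the 6 wild-type animals and so are not independent. Csf1r and Cd163 were called in neither. In whole tissue, more macrophages and more RNA of a marker per macrophage cannot be told apart.

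**Figure D2:**
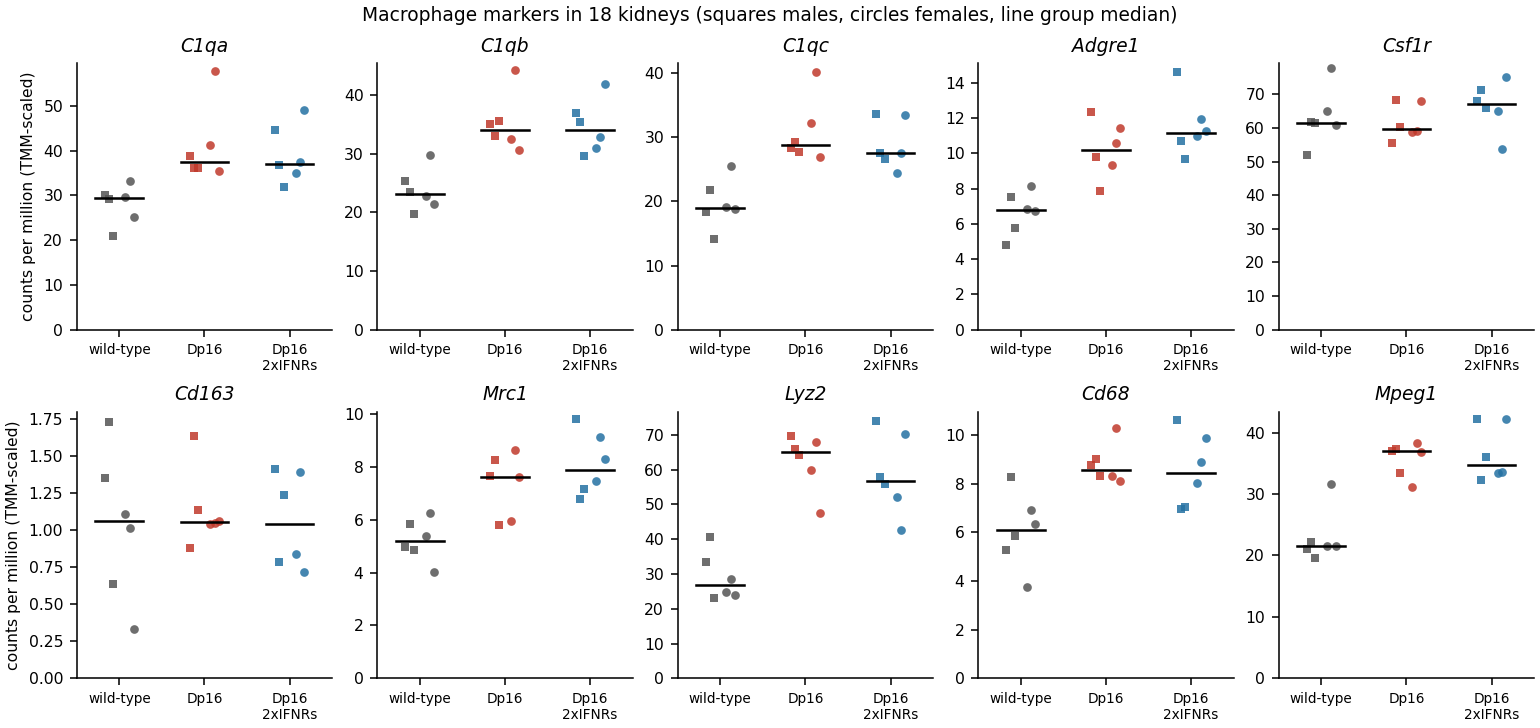
CPM of each marker in every animal, from 0 upward, by group, with squares for males, circles for females and a line at the group median. The Dp16 and Dp16 2xIFNRs points of Lyz2 lie wholly above those of wild-type, and the 3 groups of Csf1r and of Cd163 cover the same range.

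The 3 chains of C1q are encoded side by side on the minus strand of chromosome 4 (GRCm38), within 18675 bases: C1qb at 136880129 to 136886187, C1qc at 136889804 to 136893065 and C1qa at 136895917 to 136898803. The chains assemble together into 1 protein, and all 3 genes were higher in both duplication groups. C1qa ranged from 21.0 to 33.3 CPM in wild-type (median 29.4), from 35.4 to 57.7 in Dp16 (median 37.5) and from 31.9 to 49.1 in Dp16 2xIFNRs (median 37.1). Each Dp16 animal therefore lay above every wild-type animal, and 5 of 6 Dp16 2xIFNRs animals did. The log2 fold change of C1qa was 0.54 ± 0.12 (SE) in Dp16 (edgeR adjusted p = 0.0167) and 0.48 ± 0.12 in Dp16 2xIFNRs (edgeR adjusted p = 0.0291). For C1qb the ranges were 19.8 to 29.7 CPM in wild-type (median 23.1), 30.7 to 44.2 in Dp16 (median 34.1) and 29.6 to 41.9 in Dp16 2xIFNRs (median 34.1). C1qb again separated Dp16 from wild-type without overlap, with a log2 fold change of 0.57 ± 0.10 (edgeR adjusted p = 0.00363), and rose by 0.54 ± 0.10 in Dp16 2xIFNRs (edgeR adjusted p = 0.00467). C1qc, the third chain, had 14.1 to 25.5 CPM in wild-type (median 19.0), 27.0 to 40.2 in Dp16 (median 28.7) and 24.4 to 33.6 in Dp16 2xIFNRs (median 27.5). Its log2 fold changes were 0.65 ± 0.12 in Dp16 (edgeR adjusted p = 0.00364) and 0.56 ± 0.12 in Dp16 2xIFNRs (edgeR adjusted p = 0.00885). Dp16 replicate 3, a female, had the highest value of all 3 chains in its group, and the Dp16 call of C1qa was lost without it (log2 fold change 0.43, edgeR adjusted p = 0.0543). Without a sex term C1qa was called in neither group (edgeR adjusted p = 0.0585 in Dp16 and 0.101 in Dp16 2xIFNRs). The C1qa call in Dp16 2xIFNRs was lost on leaving out any 1 of 6 libraries (replicates 1, 3 and 5 of Dp16 2xIFNRs and 2, 4 and 6 of wild-type), with log2 folds from 0.40 to 0.53 and adjusted p from 0.0161 to 0.0845 over the 18 omissions. C1qb and C1qc kept their calls in both groups in each of 29 alternative fits.

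The DNA just upstream of the start sites is shown for the 5 markers with a match to a motif named below. It sets the C1q genes beside other markers. The stretches come from RefSeq (GRCm38.p6) and stop where the transcript of either annotation starts. Of the 10 markers 7 had an entry (not C1qa, Adgre1 and Csf1r). Cd163 and Mpeg1 had an entry without a match and are not shown. Mpeg1 was called higher in both duplication groups and Cd163 in neither, and a link between motifs and levels was not tested. In capitals are AGGAAG or its reverse complement, the core bound by PU.1 and other ETS factors, and, in Cd68, TTGCNNAA, a pattern of C/EBP factors; each was searched on both strands, without overlap with another motif. C1qb lies at chr4:136886201-136886450 and C1qc at chr4:136893066-136893164, both on the minus strand, Lyz2 at chr10:117282322-117282522 and Cd68 at chr11:69666171-69666420, also minus, and Mrc1 at chr2:14229164-14229391 on the plus strand.
C1qb: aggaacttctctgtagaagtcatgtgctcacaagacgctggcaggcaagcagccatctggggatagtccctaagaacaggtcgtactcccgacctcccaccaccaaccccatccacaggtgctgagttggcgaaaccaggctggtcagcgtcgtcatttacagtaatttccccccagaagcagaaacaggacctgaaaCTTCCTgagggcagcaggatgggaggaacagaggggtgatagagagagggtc
C1qc: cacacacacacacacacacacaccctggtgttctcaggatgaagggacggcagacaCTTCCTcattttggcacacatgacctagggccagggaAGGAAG
Lyz2: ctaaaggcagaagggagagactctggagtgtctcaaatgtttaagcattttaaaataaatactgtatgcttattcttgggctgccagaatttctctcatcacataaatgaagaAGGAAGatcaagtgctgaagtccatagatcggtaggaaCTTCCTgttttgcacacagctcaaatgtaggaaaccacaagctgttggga
Mrc1: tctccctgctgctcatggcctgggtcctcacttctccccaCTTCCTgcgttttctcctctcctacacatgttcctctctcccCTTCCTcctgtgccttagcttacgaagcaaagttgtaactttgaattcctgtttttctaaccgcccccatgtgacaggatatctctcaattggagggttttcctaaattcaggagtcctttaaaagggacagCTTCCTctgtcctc
Cd68: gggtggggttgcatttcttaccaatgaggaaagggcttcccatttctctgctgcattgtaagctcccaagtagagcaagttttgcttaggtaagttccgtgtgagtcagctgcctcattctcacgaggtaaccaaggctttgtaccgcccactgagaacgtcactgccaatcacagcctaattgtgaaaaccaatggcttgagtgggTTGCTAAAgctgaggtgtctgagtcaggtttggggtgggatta

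In the 250 bases upstream of the RefSeq start, AGGAAG was found in 4 of the 7 markers, beside 29.5% of 32851 promoters of the same length. The match of C1qb began 52 bases before its start, those of C1qc 194 and 157 bases, those of Lyz2 137 and 99 bases and those of Mrc1 210, 168 and 36 bases. TTGCNNAA was found in 1 of 7, in Cd68 at 43 bases, and in 9.56% of all promoters. The element bound by IRF factors (GAAA repeated after any 2 bases) was found in 0 of 7, and in 2.98% of all promoters. A match here is a string of letters only, and binding was not measured.

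Lyz2 had the largest log2 fold change of the 10 markers in both duplication groups. It lies at 117277331 to 117282321 on the minus strand of chromosome 10. Wild-type animals had 23.2 to 40.5 CPM of Lyz2 (median 26.7), Dp16 animals 47.4 to 69.6 (median 65.1) and Dp16 2xIFNRs animals 42.7 to 74.1 (median 56.8). No animal with the duplication overlapped with wild-type. The log2 fold change of Lyz2 was 1.11 ± 0.13 in Dp16 (2.16-fold, edgeR adjusted p = 5.16e-05) and 1.02 ± 0.13 in Dp16 2xIFNRs (2.03-fold, edgeR adjusted p = 0.000131), and both calls held in each of 29 alternative fits. The next gene, Lyz1, a near copy of Lyz2 with 96% identity over 1262 bases of transcript, could share reads with it. Lyz1 had 6 to 70 counts per library, 0.497% to 2.24% of the counts of both genes, and its log2 folds of 1.26 and 1.03 did not pass the test (edgeR adjusted p = 0.0737 and 0.149).

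The other markers of phagosome and lysosome were higher by smaller amounts. Mpeg1 (chromosome 19, 12460779 to 12465283, plus strand) had 19.6 to 31.7 CPM in wild-type (median 21.6), 31.2 to 38.2 in Dp16 (median 36.9) and 32.3 to 42.2 in Dp16 2xIFNRs (median 34.8). Wild-type replicate 5, a female, was the animal at 31.7 CPM, with the next at 22.1 CPM, and it alone touched the range of Dp16. The log2 fold change of Mpeg1 was 0.64 ± 0.10 in Dp16 (edgeR adjusted p = 0.00117) and 0.68 ± 0.10 in Dp16 2xIFNRs (edgeR adjusted p = 0.000807). Cd68 (chromosome 11, 69664213 to 69666153, minus strand) had 3.77 to 8.26 CPM in wild-type (median 6.08), 8.12 to 10.3 in Dp16 (median 8.55) and 6.95 to 10.6 in Dp16 2xIFNRs (median 8.46). All 6 animals of both duplication groups lay above the wild-type median of Cd68. Its log2 fold change was 0.54 ± 0.15 in Dp16 (edgeR adjusted p = 0.0457) and 0.50 ± 0.15 in Dp16 2xIFNRs, where it missed the threshold (95% interval 0.19 to 0.81, edgeR adjusted p = 0.0592). The Dp16 call of Cd68 was lost without wild-type replicate 1, 2, 4 or 6, Dp16 replicate 1, 2, 3, 5 or 6, and Dp16 2xIFNRs replicate 2 or 4 (log2 folds 0.43 to 0.65 and adjusted p up to 0.111 over the 18 omissions), and also without a sex term (edgeR adjusted p = 0.109) and when just the 2 groups were fitted (0.0735). In Dp16 2xIFNRs it was gained on leaving out the third replicate of that group or of wild-type and in 6 further alternatives, DESeq2 among them, with adjusted p from 0.0217 to 0.159 over the omissions.

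Surface receptors split into those that were higher and those for which no difference was detected. Adgre1 (chromosome 17, 57358691 to 57483527, plus strand) had 4.80 to 8.17 CPM in wild-type (median 6.78), 7.85 to 12.4 in Dp16 (median 10.2) and 9.67 to 14.6 in Dp16 2xIFNRs (median 11.1). Dp16 2xIFNRs animals did not overlap with wild-type, and 5 of 6 Dp16 animals lay above every wild-type animal. Adgre1 rose by 0.63 ± 0.13 on the log2 scale in Dp16 (edgeR adjusted p = 0.00777) and by 0.80 ± 0.13 in Dp16 2xIFNRs (edgeR adjusted p = 0.00132). Mrc1 (chromosome 2, 14229392 to 14332057, plus strand) had 4.01 to 6.24 CPM in wild-type (median 5.18), 5.80 to 8.64 in Dp16 (median 7.63) and 6.77 to 9.79 in Dp16 2xIFNRs (median 7.88). The mannose receptor gene thus overlapped with wild-type in Dp16 and not in Dp16 2xIFNRs. Its log2 fold changes were 0.49 ± 0.13 (edgeR adjusted p = 0.0355) and 0.63 ± 0.13 (edgeR adjusted p = 0.00664). The Dp16 call of Mrc1 was lost without wild-type replicate 1, 2, 4 or 6 or Dp16 replicate 1, 3, 4 or 5, with log2 folds from 0.42 to 0.55 and adjusted p up to 0.0984 over the 18 omissions, and also without a sex term (edgeR adjusted p = 0.084) and when just the 2 groups were fitted (0.0722). Cd163 (chromosome 6, 124304656 to 124330527, plus strand) had 0.331 to 1.73 CPM in wild-type (median 1.06), 0.882 to 1.64 in Dp16 (median 1.05) and 0.718 to 1.42 in Dp16 2xIFNRs (median 1.04). At these low counts the intervals of Cd163 were wide, with a log2 fold of 0.16 (95% interval -0.45 to 0.77) in Dp16 and 0.07 (-0.54 to 0.68) in Dp16 2xIFNRs, so a rise of the size of Lyz2 lay above both intervals while one of the size of C1qa, C1qb or C1qc lay within them.

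Csf1r, the growth factor receptor, was the marker measured most precisely and showed no detectable difference. It lies at 61100598 to 61132149 on the plus strand of chromosome 18. Wild-type animals had 51.8 to 78.0 CPM of Csf1r (median 61.6), Dp16 animals 55.6 to 68.3 (median 59.8) and Dp16 2xIFNRs animals 53.8 to 75.2 (median 67.1). The 3 groups covered the same range. The log2 fold change was -0.03 (95% interval -0.22 to 0.15, edgeR adjusted p = 0.907) in Dp16 and 0.08 (95% interval -0.11 to 0.26, edgeR adjusted p = 0.693) in Dp16 2xIFNRs, so the upper bounds lay under the folds of the 8 other markers that were called in Dp16. Exons of Csf1r overlap by 873 bases with those of Hmgxb3, a gene on the opposite strand. The strand setting of the counting is not given in the sources used here, and reads of the 2 genes in these bases may not be told apart. Hmgxb3 itself, named after its values were seen, had log2 folds of -0.11 and -0.02 (edgeR adjusted p = 0.633 and 0.952).

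**Figure D3:**
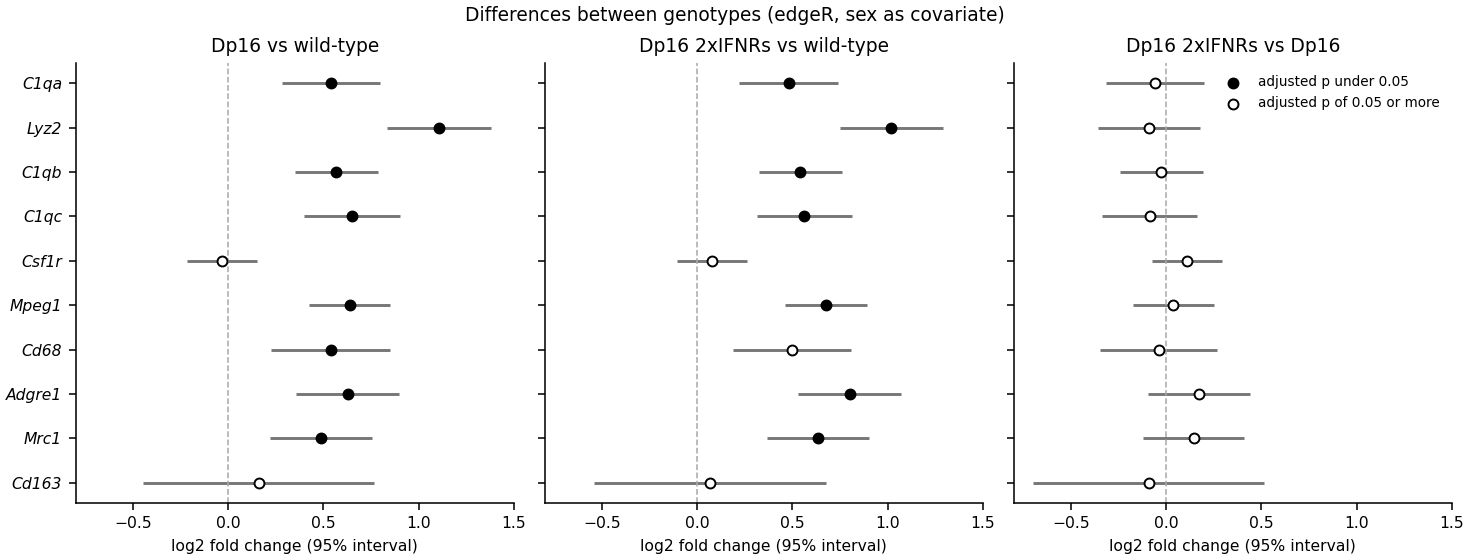
Log2 fold change of each marker with its 95% interval in the 3 comparisons of genotypes, filled where the edgeR adjusted p is under 0.05, ordered by the wild-type RPKM. In both comparisons with wild-type Lyz2 lies farthest to the right and Csf1r and Cd163 lie nearest to 0, and in the right panel every interval covers 0.

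The marker genes were then set against Csf1r within each animal, as the log2 ratio of CPM (prior count 2), and tested by an exact two-sided permutation of animals within sex. With 400 arrangements the smallest p this can give is 0.005, and p-values were adjusted over 27 ratios. Csf1r itself showed no detectable difference, so the ratios largely restate the folds above and are not separate evidence. In Dp16, 8 of 9 ratios were higher than in wild-type, the exception being Cd163 (exact permutation p = 0.42). The Lyz2 to Csf1r ratio was 2.22-fold higher (log2 means 0.01 ± 0.29 and -1.14 ± 0.40, SD, n = 6 per group, exact permutation p = 0.005, adjusted 0.015), and 6 of 6 Dp16 animals lay above every wild-type animal. The Mpeg1 to Csf1r ratio was 1.60-fold higher and the Adgre1 to Csf1r ratio 1.58-fold higher, both also in 6 of 6 animals. Relative to Csf1r, C1qa was 1.48-fold, C1qb 1.51-fold and C1qc 1.61-fold higher. In Dp16 2xIFNRs 7 of 9 ratios were higher, with Lyz2 at 1.92-fold, Adgre1 at 1.65-fold and Mpeg1 at 1.52-fold. Cd68 missed the threshold there (1.36-fold, exact permutation p = 0.06, adjusted 0.101). Between the 2 duplication groups 0 of 9 ratios differed, with raw exact permutation p from 0.165 (Lyz2) to 0.76 (Mrc1). Leaving out 1 library at a time gave 13 to 15 called ratios in place of 15, and those of C1qa and Cd68 were the ones that crossed the threshold.

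**Figure D4:**
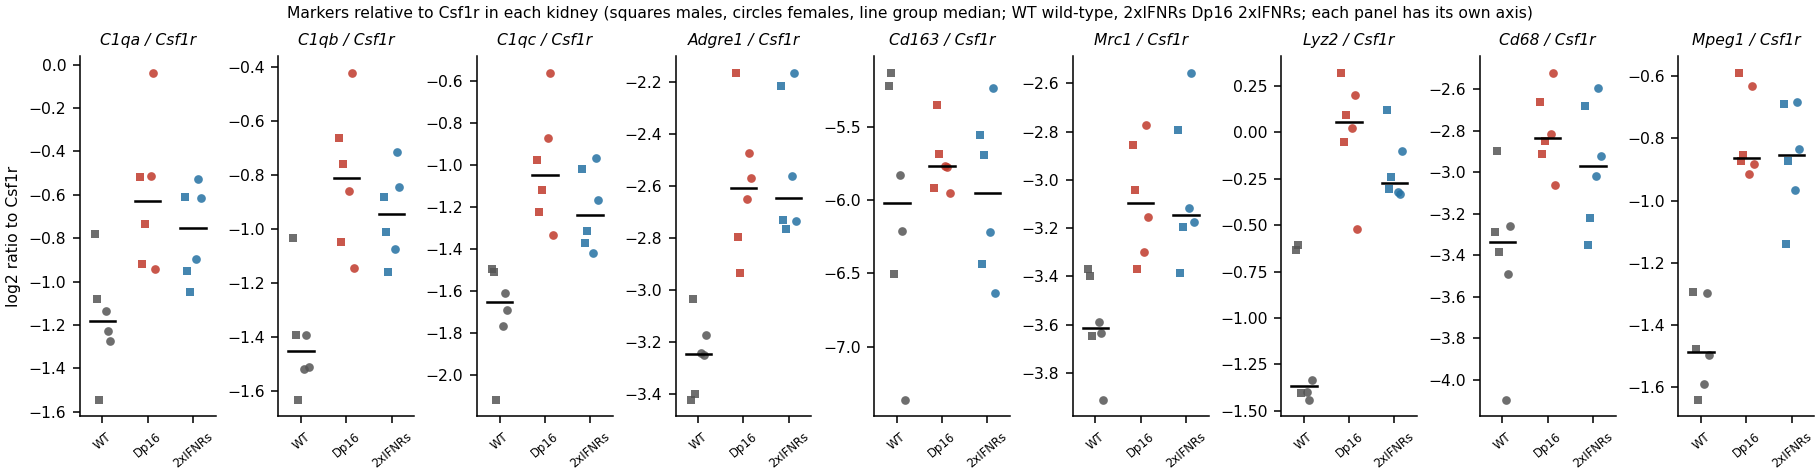
Log2 ratio of 9 markers to Csf1r in each animal by group, with squares for males, circles for females and a line at the group median; each panel has its own axis, which does not start at 0. Lyz2, Mpeg1 and Adgre1 show no overlap between wild-type and either duplication group, and Cd163 shows no separation.

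Whether the dosage of the interferon receptor genes bears on the markers was asked by comparing Dp16 2xIFNRs with Dp16. The 10 log2 differences ran from -0.09 (Cd163) to 0.17 (Adgre1), and their median was -0.03. By edgeR 0 of 10 passed the adjusted threshold and 0 had an unadjusted p under 0.05, and DESeq2 and limma also called 0. In that comparison 0.0171% of all genes were called and 4.69% had an unadjusted p under 0.05. The intervals bound what could have been missed: -0.36 to 0.18 for Lyz2, -0.32 to 0.20 for C1qa, -0.24 to 0.19 for C1qb, -0.34 to 0.16 for C1qc, -0.17 to 0.25 for Mpeg1 and -0.09 to 0.44 for Adgre1. Csf1r differed by 0.11 (95% interval -0.07 to 0.30), Mrc1 by 0.15 (-0.12 to 0.41), Cd68 by -0.04 (-0.35 to 0.27) and Cd163 by -0.09 (-0.70 to 0.51). For 0 of the 10 markers did the 2 groups separate without overlap, beside 0.0341% of all genes for higher and 0.0455% for lower values. Against wild-type, 4 markers separated without overlap in Dp16 (C1qa, C1qb, C1qc and Lyz2, beside 1.06% of all genes) and 4 in Dp16 2xIFNRs (Adgre1, Mrc1, Lyz2 and Mpeg1, beside 1.04%).

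Sex, which moved 38.8% of all genes (46.5% at an unadjusted p under 0.05), gave 0 calls among the markers by edgeR and 0 by DESeq2. Lyz2 was the 1 marker with an unadjusted p under 0.05, at a male minus female log2 difference of 0.23 (95% interval 0.01 to 0.45, edgeR unadjusted p = 0.0396, adjusted p = 0.0894). C1qa leaned the other way at -0.17 (95% interval -0.38 to 0.04) and was called, with C1qc, by limma on the RPKM values. These are scaled by library total without TMM. The TMM factors were 1.03 to 1.07 in females and 0.93 to 0.99 in males. Relative to CPM, RPKM thus shifts every gene toward females, which limits these 2 calls. Interactions of sex and genotype passed for 0 of 10 markers in each of the 3 comparisons by edgeR, and 0 had an unadjusted p under 0.05, while 0.0171%, 0.00569% and 0% of all genes were called and 7.86%, 3.53% and 3.85% had an unadjusted p under 0.05 (Dp16 and Dp16 2xIFNRs against wild-type, and Dp16 2xIFNRs against Dp16). The intervals of these interactions were wide, from -0.15 to 0.57 for Csf1r and -0.71 to 0.43 for Lyz2 in Dp16 against wild-type.

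Animals also differed within their groups, and the markers did so together in part. After removing group and sex, 16 of the 45 pairs of markers were correlated over the 18 libraries (permutation test, adjusted p under 0.05 over 45 pairs), and 16 were by rank. The libraries share their depth and their scaling between genes, which bears on every pair. The share of correlated pairs among all genes was not measured. Residuals were permuted freely although group and sex had been removed from them, so p-values near the threshold may be too small. C1qa and C1qb had r = 0.92 (rho = 0.92, permutation p = 1e-05 for both, the smallest that can be given, adjusted 0.000225 and 0.00045), and r was 0.88 without the 2 libraries farthest from the median of C1qa. C1qa and C1qc had r = 0.89 and C1qb and C1qc r = 0.84. Lyz2 went with C1qa (r = 0.85, rho = 0.86, permutation p = 3e-05 and 4e-05). Mrc1 went with Adgre1 (r = 0.66, rho = 0.79, permutation p = 0.00272 and 0.00025) and with Mpeg1 (r = 0.65). Pairs with Csf1r had r from -0.05 to 0.60. The 1 that passed by r was with Mpeg1 (r = 0.60, rho = 0.55, permutation p = 0.00871 and 0.0218, adjusted 0.0327 and 0.0545). Its r fell to 0.36 without the 2 libraries farthest from the median of Csf1r, and so depends on them in part. With the residuals after group alone 9 pairs passed. Against the mean of the other 9 markers, C1qc had the highest r (0.87) and Csf1r the lowest (0.29), followed by Cd163 (0.33). By the mean standardized residual, the highest libraries were wild-type replicate 5 and Dp16 2xIFNRs replicate 1 and the lowest was wild-type replicate 4.

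**Figure D5:**
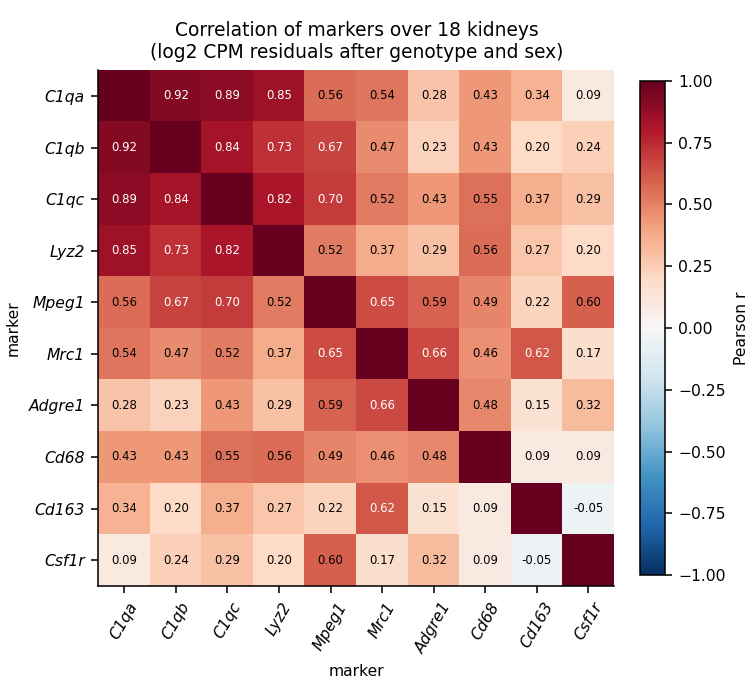
Pearson r of each pair of markers over 18 kidneys, from log2 CPM residuals after genotype and sex, with the value in each cell and colour from -1 (blue) to 1 (red). The block of C1qa, C1qb, C1qc and Lyz2 reaches 0.73 to 0.92, and the line of Csf1r is pale except for Mpeg1 at 0.60.

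Among all other genes tested, 7 of the 8 most like the mean of the markers over the 18 libraries, by r of the same residuals, were H2-Aa (0.88), H2-D1 (0.88), Fcer1g (0.875), Ctss (0.87), Cd86 (0.86), Cd53 (0.86) and H2-Eb1 (0.86). Fcer1g is the signalling chain of Fc receptors, Ctss is a protease of antigen processing, and H2-Aa and H2-Eb1 are chains of MHC class II. Against wild-type, 6 of these 7 were higher in Dp16, from H2-D1 at a log2 fold of 0.34 to Cd53 at 0.79, and Cd86 was not called (0.53, edgeR adjusted p = 0.0686). In Dp16 2xIFNRs, 5 were higher, and H2-D1 (0.25, edgeR adjusted p = 0.0775) and Cd86 were not called. These genes were picked for their likeness, so their r is a description.

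Other genes of tissue macrophages were also counted. Of 27 tested, 5 were higher and 1 lower in Dp16 and 7 higher and 0 lower in Dp16 2xIFNRs, with medians of 0.39 and 0.17. Beside this list and those in the paragraphs below, 3.17% of all genes tested were higher and 1.06% lower in Dp16. In Dp16 2xIFNRs the shares were 3.17% and 1.61%. A list with 1 call is therefore not read as a result about that list. Ms4a7, a membrane protein of macrophages, was higher by 1.18 in both groups (edgeR adjusted p = 0.00118 and 0.00132). Itgam, the integrin CD11b, was higher by 0.94 and 0.86 and Aif1, the calcium-binding protein IBA1, by 0.70 and 0.84. The Fc receptor gene Fcgr4 was called in Dp16 (0.69, edgeR adjusted p = 0.0244), and Fcgr1 and the fractalkine receptor gene Cx3cr1 in Dp16 2xIFNRs (0.85 and 0.80).

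Among 11 tested ligands, receptors and transcription factors of macrophage growth, 1 was higher in Dp16 and 3 in Dp16 2xIFNRs, and 0 were lower. Csf1, a ligand of the Csf1r receptor, had a log2 fold of 0.34 in Dp16 (edgeR adjusted p = 0.0607) and rose by 0.39 in Dp16 2xIFNRs (edgeR adjusted p = 0.0267). Il34, the other ligand, had -0.06 and -0.04. Spi1, which encodes PU.1, had 0.47 in Dp16 (edgeR adjusted p = 0.065) and rose by 0.50 in Dp16 2xIFNRs (edgeR adjusted p = 0.0424). Csf2ra, a receptor chain for granulocyte-macrophage colony-stimulating factor, was the 1 called in Dp16 (0.34).

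The partners of C1q in the classical pathway moved in small number. Of 13, 3 were higher in each duplication group and 0 lower, with medians of 0.15 and 0.14. C1s1, a protease of the C1 complex, was higher by 0.45 and 0.40 (edgeR adjusted p = 0.0235 and 0.0428) and its inhibitor Serping1 by 0.48 and 0.41. The partner protease C1ra was called in Dp16 (0.45) and not in Dp16 2xIFNRs (0.28, edgeR adjusted p = 0.112), and its difference between these groups was not called either (-0.18, 95% interval -0.38 to 0.02). Of 16 other genes with a C1q domain, 1 was higher and 1 lower in Dp16 and 1 higher in Dp16 2xIFNRs.

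Of 15 other scavenger and mannose receptors, 2 were higher in Dp16 and 3 in Dp16 2xIFNRs, with the scavenger receptor gene Stab1 at 0.39 and 0.52 and the lectin gene Clec4a1 at 1.01 and 0.88. Of 20 lysosomal genes, 3 were higher in Dp16 and 6 in Dp16 2xIFNRs, and the median folds were 0.14 and 0.17. Ctss, which is enriched in antigen-presenting cells, was higher by 0.79 and 0.78 (edgeR adjusted p = 0.00118 and 0.00139), Ctsc, a protease that activates other proteases, by 0.51 and 0.46, and Hexa, a hexosaminidase chain, by 0.46 and 0.44. Of 9 genes of alternatively activated macrophages, Mgl2, a lectin, was the 1 called, at 0.51 and 0.49.

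Markers of other leukocytes moved with these genes. Of 10 genes of most leukocytes, 8 were higher in Dp16 and 7 in Dp16 2xIFNRs, and their summed level was 93.1 to 134 CPM in wild-type, 140 to 186 in Dp16 and 135 to 181 in Dp16 2xIFNRs. Ptprc, the leukocyte antigen CD45, was higher by 0.73 and 0.77 (edgeR adjusted p = 8.5e-05 and 5.05e-05), and Itgb2, the integrin chain shared by leukocytes, by 0.75 in both. The summed level of the 10 macrophage markers was 176 to 249 CPM in wild-type, 273 to 338 in Dp16 and 259 to 342 in Dp16 2xIFNRs. Of 13 monocyte genes 4 were higher in Dp16 and 6 in Dp16 2xIFNRs, with the integrin gene Itga4 at 0.82 and 0.79 and Treml4 at 1.13 and 1.45. The summed level of all 13 overlapped between groups, at 551 to 662 CPM in wild-type (median 589), 429 to 667 in Dp16 (median 558) and 483 to 674 in Dp16 2xIFNRs (median 587). The sum without Ace and Fn1, which kidney epithelium and stroma make and which were left out after their values were seen, was 26.0 to 33.5 CPM in wild-type, 40.02 to 47.1 in Dp16 and 39.0 to 52.1 in Dp16 2xIFNRs. Of 12 dendritic cell genes 1 and 5 were higher, with Siglech of plasmacytoid cells at 2.18 and 2.14, and the sums were 59.8 to 107 CPM, 91.1 to 125 and 90.3 to 147. Siglech was near the floor, at 4 to 54 counts per library and 0.08 to 0.17 CPM in wild-type. T and NK cell genes had 4 and 2 of 12 higher, with Cd4 at 1.12 and 1.08, and sums of 6.25 to 11.8 CPM, 12.8 to 23.8 and 12.2 to 16.0 in wild-type, Dp16 and Dp16 2xIFNRs. B and plasma cell genes had 2 and 1 of 10 higher, led by Igkc at 1.67 and 1.35, and sums of 85.01 to 150 CPM, 206 to 749 and 147 to 533. Neutrophil genes were near the floor, with 2 of 6 tested higher in each group (Csf3r at 1.29 and 1.17, Ltf at 1.08 and 1.13), sums of 3.04 to 8.09 CPM, 4.47 to 7.01 and 3.58 to 7.91, and Ly6g at 0 to 4 counts. The part of these other cells in the levels of Lyz2, Mpeg1, Cd68 and the other shared markers was not tested.

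Markers of the kidney's own cells were also counted. Of 12 proximal tubule genes 0 were higher and 1 lower in each duplication group (Slc22a8, an organic anion transporter, at -0.42 and -0.43). Of 12 genes of other nephron segments 2 were higher in Dp16 and 3 in Dp16 2xIFNRs. Of 10 genes of stroma and endothelium 1 was higher in Dp16 (Col3a1, a fibrillar collagen, 0.62, edgeR adjusted p = 0.0332) and 0 in Dp16 2xIFNRs. Of 8 tested genes of perirenal fat and lymph node, Adipoq of fat was higher in Dp16 (0.60, edgeR adjusted p = 0.0439) and Ucp1 of brown fat lower in Dp16 2xIFNRs (-2.26, edgeR adjusted p = 0.0291). Their part in the marker levels was not tested. Between the 2 duplication groups, 0 genes of these lists were called by edgeR.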

How the data were processed

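PolyA RNA of 18 kidneys was sequenced in strand-specific paired-end libraries, per the labels' protocols. The tools named in the submitters' processing notes are HTSeq 0.6.1, HISAT2 2.1.0, SAMtools 1.5, FastQC 0.11.5 and bcl2fastq, the build is GRCm38, and tool settings are not given in the sources used here. The authors deposited raw counts per gene and, for the same genes, RPKM values; in 12540 of 12540 genes with at least 50 counts in every library, counts divided by RPKM gave 1 gene length within 0.1%, with the library's total as the denominator.

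Groups, sexes and ages came from the labels. Each library was taken as 1 animal, and p-values measure the spread between these libraries. Within groups the counts differed by more than sampling noise (lowest chi-square per degree of freedom 19.8). The 18 libraries entered a single model of genotype group and sex, tested by quasi-likelihood in edgeR 4.0.16 under R 4.3.3, after TMM normalization and a filter by group (minimum count 10, minimum total 15). All tests were two-sided, with Benjamini-Hochberg adjustment over the genes tested. SE is the size of the log2 fold divided by the root of F. The biological coefficient of variation was 16.8%.

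The markers, the other gene lists, the tests and the rule for named genes were chosen with earlier results of these data known. The rule took all 10 markers, the 3 genes of smallest p per list in each comparison with wild-type, the 3 highest genes of lists used as a cell type check, and the 8 genes most like the markers; a few further called list genes are named beside them. A few other genes were named after their values were seen, and some genes that the rule took are not reported here. Alternatives were RLE size factors, no filter, a filter at log2 CPM 1, no sex term, age as a term, DESeq2 1.42.0, a block for the sample number, 2 groups alone, the last number of the description as a random block (limma-voom, limma 3.58.1), limma on log2(RPKM + 0.1) and log2(RPKM + 1), prior count 0.5, and each library left out. A fold that changed sign while called neither way was counted as unchanged. Gene positions are from GENCODE M21 and promoters from RefSeq. The fits were tested on simulated data.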

Additional observations from a re-analysis of the deposited data

Results flagged for a closer look

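In 30 sets of 6 animals (10 markers in 3 groups), the animal at either end was set against the others by Dixon's test on log2 CPM, which by chance marks about 1 in 20 sets. It marked 2. C1qa in Dp16 replicate 3, a female, was 57.7 CPM, with the next animal at 41.3 CPM, and this library also had the highest C1qb, C1qc, Mrc1, Cd68 and Mpeg1 of its group. Mpeg1 in wild-type replicate 5, also a female, was 31.7 CPM, with the next at 22.1 CPM, and this library had the highest C1qa, C1qb, C1qc, Adgre1, Csf1r and Mrc1 of its group.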

How the results depend on the processing

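The number of markers called ran from 5 (no sex term) to 8 in Dp16 and from 6 to 8 in Dp16 2xIFNRs against wild-type over the alternatives, and was 0 in all of them between the 2 duplication groups and for interactions of sex and genotype. Leaving out 1 library at a time gave 5 to 8 in Dp16 (5 without Dp16 replicate 3) and 6 to 8 in Dp16 2xIFNRs. Of the other values, 2240 kept their side of the threshold (115 of them, called neither way, changed sign), 45 lost a call, 18 gained one and 0 reversed. Between males and females 0 markers became 1 without a filter (Lyz2), 2 with the replicate block, 2 on log2(RPKM + 0.1) and 2 on log2(RPKM + 1) (C1qa and C1qc each time), and 0 to 1 with a library left out (1, Lyz2, without wild-type replicate 4 or Dp16 2xIFNRs replicate 5).

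Counts of all genes moved more. In Dp16 the 744 calls became 190 without a sex term, 1236 in DESeq2, 453 in a fit of the 2 groups alone, and 429 to 815 with a library left out (429 without Dp16 replicate 3, 462 without Dp16 replicate 1, 478 without wild-type replicate 4). In Dp16 2xIFNRs the 841 calls became 234, 1287 in DESeq2, and 526 to 920 (526 without wild-type replicate 1, 552 without Dp16 2xIFNRs replicate 1). Interaction calls of 3, 1 and 0 genes became 55, 61 and 12 without a filter, and ranged over 2 to 14 and 0 to 9 with a library left out, both highest without Dp16 replicate 3. Correlated pairs of markers fell from 16 to 9 without sex in the residuals. The cause of these shifts was not tested.

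Libraries of 1 sample number correlated from -0.42 to 0.53 after group means. Sex was not removed, and r was positive between libraries of the same sex and negative between the sexes. The check therefore cannot show whether the sample numbers pair the animals. With the number as a replicate block, 8, 8 and 0 markers and 910, 945 and 3 genes were called in Dp16, Dp16 2xIFNRs and between them, and Cd68 was called in Dp16 2xIFNRs (0.52). The last number of the description, whose meaning the labels do not give, also repeats: 5 such numbers are shared between groups, by 11 libraries. As a random block it gave 8, 8 and 0 markers and 828, 992 and 3 genes. Depth limits Cd163 most, at 18 to 94 counts per library.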
